A study of Mus musculus with 2 samples.

Results

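The ligands of the epidermal growth factor (EGF) family Areg, Epgn, Btc, Tgfa, Ereg and Nrg1 and the receptor genes Egfr, Erbb2, Erbb3 and Erbb4 were compared between luminal mammary cells with high and with low activity of the Tbx3 promoter. The members were chosen by gene name and not by a threshold on their values, but with earlier results of these data known. Every probe set that the platform annotation pairs with a member symbol alone was used, together with 1 probe set for Areg, which that annotation table does not list. This gave 14 probe sets of 10 genes, 8 for the 6 ligands and 6 for the 4 receptors, out of 29338 probe sets in the table and 13870 genes with a name. Members without a probe set in the table numbered 0.

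Mammary cells of 3 adult virgin female mice, aged 5 months and on the FVB background, were pooled before sorting. All mice were heterozygous knock-in animals (Tbx3 +/Venus), in which the fluorescent protein Venus is made from the Tbx3 locus and the knock-in allele makes no Tbx3, so both populations carry 1 working Tbx3 allele. Dead cells, CD45+ cells and stromal cells were gated out, and luminal cells were gated by CD24 and CD49f. These were separated into luminal Venus High cells (Tbx3 promoter activity high) and luminal Venus Low cells (low or negative for Venus), 200000 cells each. RNA of each population was hybridized to 1 Affymetrix GeneChip array for the mouse genome, so there were no replicates and no difference below was tested against the spread between animals.

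EGF family ligands are made as membrane-anchored precursors, are released by proteases at the cell surface, and bind receptor tyrosine kinases of the ERBB family, which pair up on binding. Amphiregulin (Areg), epigen (Epgn) and TGF-alpha (Tgfa) bind the EGF receptor, betacellulin (Btc) and epiregulin (Ereg) bind the EGF receptor and ERBB4, and neuregulins bind ERBB3 and ERBB4. ERBB2 has no known ligand of its own and serves as the preferred partner of the other receptors. In the mammary gland, amphiregulin is known as an estrogen-induced signal from hormone-sensing luminal cells that is needed for duct outgrowth in puberty.

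Values are array signals on the log2 scale, and a difference is Venus High minus Venus Low. The lowest signal in the table is 10, the floor, so a probe set at the floor has only an upper bound. A probe set was treated as measured when it reached a signal of 100 on the brighter array, which 5889 probe sets did. Probe sets lower in Venus High than in Venus Low numbered 0 in the table, so all differences here are 0 or above by construction. Genes or probe sets with the opposite direction are not analysed here. The only spread available was that between measured probe sets of the same gene, a pooled SD of 0.31 over 1062 genes, which covers neither animals nor sorts and, in a table with this direction alone, may be too small.

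Areg had the largest difference among the members. Its signal was 7240 in the Venus High and 35.0 in the Venus Low population, 12.82 and 5.13 on the log2 scale. The Venus High signal was 207-fold higher, a log2 difference of 7.69 that ranked 7 among the 5889 measured probe sets. The Venus Low signal lies close to the floor, and the log2 difference was 6.18 when every signal under 100 was raised to 100. This probe set is the only Areg probe set used, and its name rests on a list of genes with large differences, so Areg could enter only with a large value. In pooled RNA, fewer expressing cells and less RNA per cell cannot be told apart, which holds for every value here.

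Epgn and Btc, which encode further ligands and lie near Areg on the chromosome, were also higher in Venus High cells. Epgn gave a signal of 1352 on the Venus High array and 87.0 on the Venus Low array. This was 15.5-fold higher, a log2 difference of 3.96, which changed to 3.76 when the floor was set to 100. Btc was measured with 1 probe set (1435541_at), with signals of 244 and 62.2, and was 3.92-fold higher, just under 4-fold. Its other probe set (1421161_at) stayed under a signal of 100, with signals of 63.4 and 17.6 and a fold of 3.60. The log2 differences of the pair, 1.97 and 1.85, differed by less than the SD of 0.31 between measured probe sets of 1 gene. That SD does not cover the dimmer of the pair, which was not measured. For all 3 genes the Venus Low signal was under 100.

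The bases before the start of Areg, Epgn and Btc are shown because these neighbouring ligand genes were higher together, and they were read from the RefSeq promoters of GRCm38.p6, in which 7 of the 10 members matched. Each line gives the 250 bases up to the start in the direction of the gene. The window of Areg lies at chr5:91139349-91139598 on the plus strand, that of Epgn at chr5:91027267-91027516 on the plus strand and that of Btc at chr5:91402995-91403244 on the minus strand. Capitals mark the cAMP response element TGACGTCA and the TATA box TATAAA.
Areg: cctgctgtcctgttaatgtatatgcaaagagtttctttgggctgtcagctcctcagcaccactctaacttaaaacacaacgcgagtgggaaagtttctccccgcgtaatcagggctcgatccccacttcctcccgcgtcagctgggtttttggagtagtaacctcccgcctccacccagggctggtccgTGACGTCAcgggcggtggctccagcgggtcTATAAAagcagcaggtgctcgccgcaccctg
Epgn: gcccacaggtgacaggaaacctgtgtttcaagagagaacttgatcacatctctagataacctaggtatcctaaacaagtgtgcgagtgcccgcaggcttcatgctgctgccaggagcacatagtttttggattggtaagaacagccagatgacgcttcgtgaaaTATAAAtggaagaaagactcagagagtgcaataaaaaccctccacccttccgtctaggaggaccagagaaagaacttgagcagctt
Btc: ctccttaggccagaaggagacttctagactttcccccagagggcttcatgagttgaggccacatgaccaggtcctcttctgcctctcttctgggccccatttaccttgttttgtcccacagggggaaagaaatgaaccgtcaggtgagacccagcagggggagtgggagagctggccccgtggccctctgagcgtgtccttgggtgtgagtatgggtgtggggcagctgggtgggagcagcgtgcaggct

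The Areg window holds the cAMP response element, starting 61 bases before the gene start, and a TATA box starting 31 bases before it. Epgn holds a TATA box letter match 86 bases before the start, and Btc holds neither. The cAMP response element, which reads alike on both strands, occurs in 1.55% of the 32851 RefSeq promoter windows of this length, and TATAAA on the strand of the gene in 7.59%. The estrogen response element (GGTCA and TGACC with 3 bases between them, both strands) occurs in 0.0639% and the T-box element AGGTGTGA (both strands) in 1.12%. Neither of these was found in the windows of the 7 matched members. The searched elements do not overlap in the printed windows. The G and C content was 57.2% for Areg, 46.8% for Epgn and 59.6% for Btc, with 15, 5 and 4 CG dinucleotides. A match to these letters is a description of the sequence and not a bound site.

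On its measured probe set (1421943_at), Tgfa was 3.02-fold higher in the Venus High population, with signals of 154 and 50.8. Its other probe set (1450421_at) was near the floor, with signals of 18.0 and 12.6. The measured log2 difference of 1.60 fell to 0.62 with the floor at 100 and to 0.94 after median centring, under 2-fold in both cases. Ereg was near the floor on both arrays, with signals of 15.1 and 14.2. The log2 difference of Ereg was 0.08, and the SD between measured probe sets does not cover signals this near the floor. Nrg1, the neuregulin gene among the members, did not leave the floor on either array on its only probe set in the table (1456524_at). This gives no level of Nrg1 in either population.

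**Figure D1:**
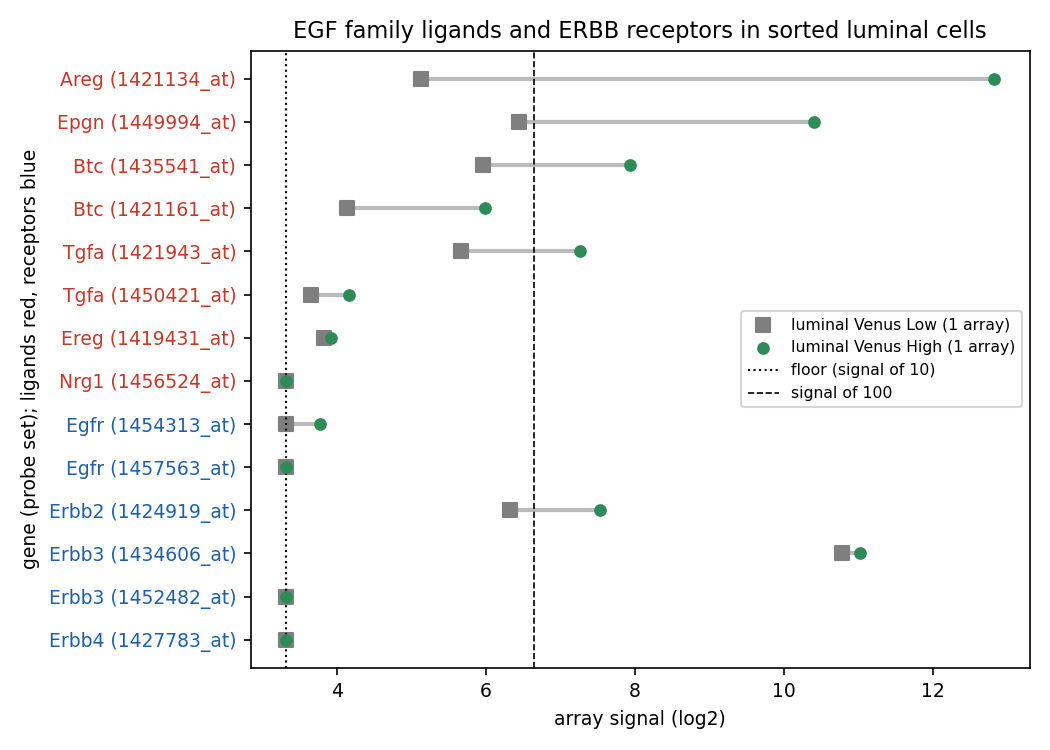
Array signal (log2, horizontal axis) of the 14 member probe sets with green circles for the luminal Venus High array and grey squares for the Venus Low array, and with ligands named in red and receptors in blue. The gap is widest for Areg (12.82 and 5.13), then Epgn (10.40 and 6.44), while Erbb3 (11.02 and 10.77) has nearly the same signal on both arrays and 4 probe sets lie at the floor on both.

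Among the receptors, Erbb3 was detected in both luminal populations at almost the same level. The signals of Erbb3, which encodes a neuregulin receptor with a weak kinase, were 2080 on the Venus High and 1752 on the Venus Low array (1434606_at). The fold was 1.19, and the log2 difference of 0.25 was below the SD between probe sets. It became negative, -0.41 after median centring and -0.47 after quantile normalization. Both scalings were run on a table without lower probe sets, and median centring lowered every difference by 0.66. These signs therefore do not settle the direction of Erbb3, which stays unsettled here. The other Erbb3 probe set (1452482_at) was at the floor on both arrays.

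Erbb2 had signals of 185 on the Venus High and 80.5 on the Venus Low array (1424919_at), which is 2.30-fold higher in the former. The log2 difference of 1.20 fell to 0.89 with the floor at 100 and to 0.54 after median centring. Erbb4, which encodes a receptor for neuregulins and betacellulin, was at the floor on both arrays. Egfr, which encodes the receptor for amphiregulin and epigen, had 2 probe sets in the table. The first (1454313_at) had signals of 13.7 and, at the floor, 10, and the other (1457563_at) was at the floor on both arrays. Further Egfr probe sets are not analysed here, so these values give no level of Egfr in either population.

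Ligands and receptors are set side by side here as a description. The log2 differences of the 4 measured ligand probe sets ran from 1.60 to 7.69, with a median of 2.96. Those of the 2 measured receptor probe sets were 1.20 and 0.25, with a median of 0.72. The medians differed by 2.24, and the lowest ligand value lay above the higher receptor value. With the floor at 100, Tgfa at 0.62 lay below Erbb2 at 0.89, which ends this order. Each of the 4 ligand probe sets and Erbb2 reached a signal of 100 on the Venus High array alone, so these medians are no support for a difference between ligands and receptors. Over all probe sets, unmeasured ones included, the medians were 1.72 for the 8 ligand and 0.12 for the 6 receptor probe sets.

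Of the 14 member probe sets, 6 were measured, 4 lay between the floor and a signal of 100 and 4 never left the floor. A difference of at least 2-fold was found for 5 of the 6 measured, which were 4 ligand and 1 receptor probe sets, beside 23.0% of all 5889 measured probe sets. A difference of at least 4-fold was found for 2, Areg and Epgn, beside 8.93% of all. The median log2 difference was 1.78 for the 6 and 0.48 for all measured probe sets. Of these 5 probe sets, all had a Venus Low signal under 100 and reached that minimum through the Venus High array alone, so the counts describe the members and are no support for a difference.

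**Figure D2:**
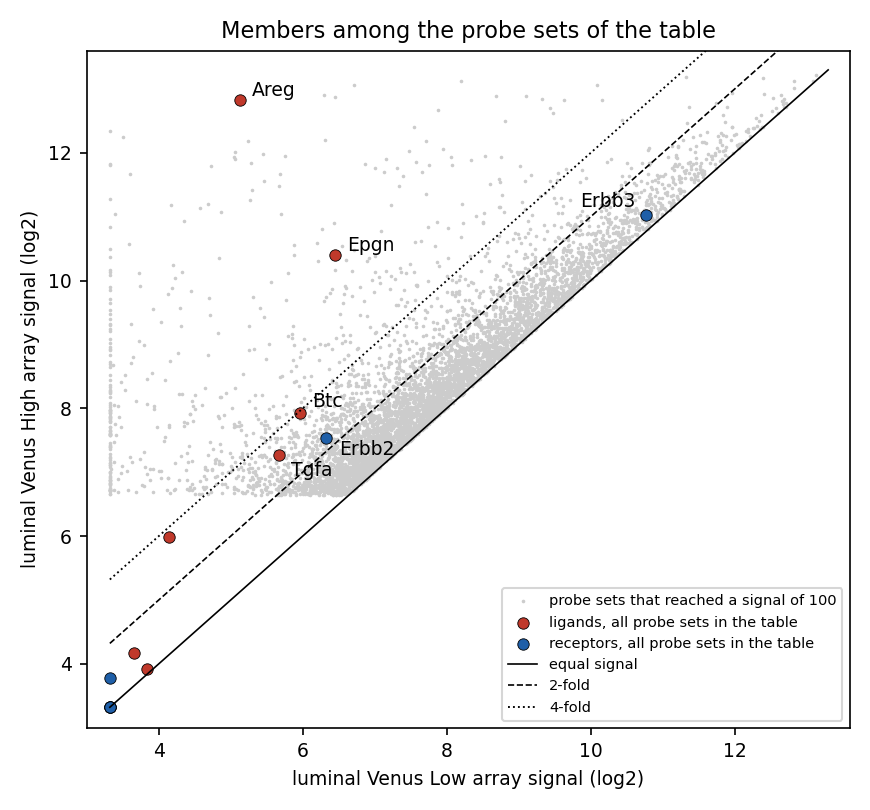
Signal of each measured probe set (grey) in luminal Venus Low cells (horizontal axis, log2) and luminal Venus High cells (vertical axis, log2), 1 array each, with all member probe sets in red (ligands) and blue (receptors). Lines mark equal signal, 2-fold and 4-fold. The ligands Areg and Epgn lie above the 4-fold line, Btc, Tgfa and Erbb2 between the lines, Erbb3 next to equal signal, and no probe set lies below it.

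Epgn, Ereg, Areg and Btc follow each other on chromosome 5 with no other named protein-coding gene between them in the RefSeq gene order. Their log2 differences in that order were 3.96, 0.08, 7.69 and 1.97, so Ereg, between Epgn and Areg, was near the floor in both populations. The next gene beyond Epgn is Mthfd2l, which encodes a mitochondrial folate enzyme. Its brightest probe set (1429599_a_at) was 1.91-fold higher, at 8.02 against 7.08 on the log2 scale, and its 4 probe sets differed by 0.37 to 0.94. The further neighbours Cxcl1 and Cxcl2 on that side and Parm1, Rchy1 and Odaph beyond Btc are not analysed here.

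**Figure D3:**
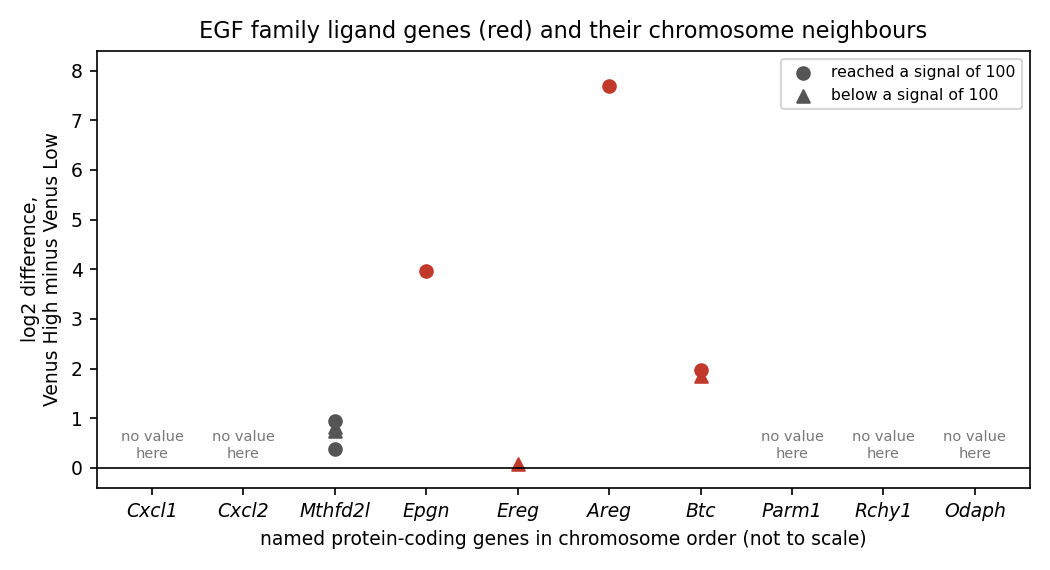
Log2 difference between luminal Venus High and Venus Low cells (vertical axis) of each probe set of the EGF family ligand genes on chromosome 5 (red) and of the nearest named protein-coding genes (grey), in chromosome order and not to scale. Circles reached a signal of 100 and triangles did not. Areg (7.69) and Epgn (3.96) stand high on both sides of Ereg (0.08), and genes marked as having no value are not analysed here.

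Of the other EGF family ligands, none was measured. Nrg4, a further neuregulin, stayed under a signal of 100 on both of its probe sets, with signals of 27.8 and 12.8 on the first (1421681_at) and of 31.9 and, at the floor, 10 on the other (1457123_at). Nrg2 and Nrg3 were at the floor on both arrays. Egf and Hbegf are not analysed here.

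Genes for release of the ligands from the membrane were in part higher in Venus High cells. Adam10, a membrane metalloprotease that releases betacellulin and EGF, had log2 signals of 11.56 and 9.44 on its brightest probe set (1428103_at), a 4.36-fold difference. Its log2 difference was 2.13 there, 2.47 on a second probe set with signals of 535 and 96.6 (1450105_at), and at least 2.56 on a dimmer probe set at the floor in Venus Low cells (1450104_at), and 1 more was at the floor on both arrays. Rhbdl2, a rhomboid protease of the membrane, was 5.18-fold higher (7.15 and 4.78 on the log2 scale), but its log2 difference was 0.51 with the floor at 100. Adam9, another metalloprotease, was 2.13-fold higher (9.95 and 8.85), and Bace1, an aspartic protease that cleaves neuregulin, was 1.30-fold higher (8.91 and 8.53). Adam17, the main protease that releases amphiregulin and TGF-alpha, had log2 signals of 4.97 and 4.96 on the probe set in the table, under a signal of 100. The table held 9 of the 13 genes listed, of which 4 were measured. Of these 4, a difference of at least 2-fold was found for 3, beside 21.6% of all 3848 measured genes. At 4-fold or more stood 2, beside 8.60%, and the median log2 difference was 1.61 beside 0.46. Rhbdl2 reached a signal of 100 on the Venus High array alone, so these counts are no support for a difference. After median centring the log2 differences were 1.47 for Adam10, 1.71 for Rhbdl2 and 0.43 for Adam9, so none reached 4-fold and Adam9 fell under 2-fold, as also after quantile normalization.

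Among the genes that restrain ERBB signaling, Spry1 differed most of those measured. Spry1, a Sprouty family brake on receptor tyrosine kinases, had signals of 128 and 49.8 in these populations. It was 2.58-fold higher, but its log2 difference of 1.37 became 0.36 with the floor at 100 and 0.71 after median centring. The ubiquitin ligase gene Cbl had log2 signals of 8.39 and 8.18. The cytokine signaling suppressor gene Socs4 had 8.04 and 7.77. For Spred1 and Spred2, which encode inhibitors of the RAS pathway, they were 6.68 and 6.35, and 8.72 and 8.52. Ptprj, a receptor phosphatase, had 6.78 and 6.57. The log2 differences of Cbl, Socs4, Spred1, Spred2 and Ptprj ran from 0.20 to 0.33, and all 5 are negative after median centring. Median centring lowered every difference by 0.66 in a table without lower probe sets, so these signs follow from the construction and give no direction. The table held 11 of the 17 genes listed, of which 6 were measured. Their median log2 difference was 0.24 beside 0.46 over all measured genes. At 2-fold or more stood 1 gene and at 4-fold or more 0, beside 21.6% and 8.60% of all. Spry1, Spred1 and Ptprj reached a signal of 100 on the Venus High array alone, so the counts and the median only describe the list. Errfi1 and Lrig1, feedback inhibitors of the ERBB receptors, are not analysed here.

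Eps8, which encodes an EGF receptor substrate that regulates actin, differed most among the adaptors and kinases. Its signal was 512 on the Venus High array and 13.9 on the Venus Low array (1422823_at), which is 37.0-fold higher. The log2 difference was 5.21 there. It was 5.16 on the second probe set (1422824_s_at) and at least 4.39 on another (1425733_a_at), and 2.36 on the first with the floor at 100. The kinase gene Akt1 was 2.08-fold higher (8.54 and 7.48), the transcription factor gene Stat5a 2.06-fold higher (9.34 and 8.30), and both are under 2-fold after median centring. Eps15, an endocytic adaptor, differed by 0.90 on the log2 scale on its brightest probe set (1419252_at). On its other measured probe set (1419251_at) it differed by 0.22 only. Map2k1, which encodes a kinase upstream of ERK, differed by 0.73 on that scale. The smallest measured differences were those of Nras (0.09) and Src (0.19). The table held 17 of the 29 genes listed, of which 11 were measured. Their median log2 difference was 0.64, again beside 0.46. At 2-fold or more stood 3 genes and at 4-fold or more 1, near the shares of 21.6% and 8.60% of all measured genes. Eps8 reached a signal of 100 on the Venus High array alone, so the counts and the median are no support for a difference.

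**Figure D4:**
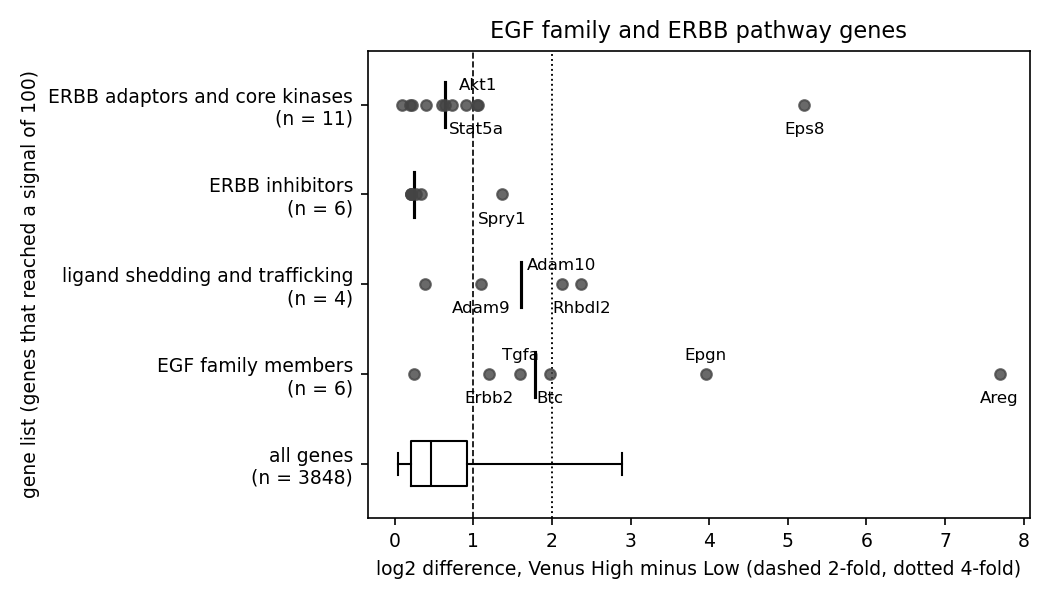
Log2 difference between luminal Venus High and Venus Low cells (horizontal axis) of each measured gene of the EGF family and of the ERBB pathway lists (points, thick line the median), above a box of all 3848 measured genes (box the quartiles, whiskers percentiles 5 and 95). Areg (7.69), Eps8 (5.21) and Epgn (3.96) lie farthest to the right, and 5 of the 6 inhibitor genes lie at 0.33 or below.

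The genes whose signals on the 2 arrays were closest to those of Areg were Gpx3, a secreted glutathione peroxidase, Pgr, the progesterone receptor, and the gene AW112010. Their distances from Areg on the log2 scale over the 2 arrays were 0.64, 0.89 and 0.90. Pgr had log2 signals of 11.93 and 5.05. Of 8 hormone-sensing marker genes, 6 had a named probe set in the table. On the probe set with the highest mean, each of the 6 was higher by 4-fold or more in the Venus High population. The share over all measured genes was 8.60%. Tbx3 (8.72 and 3.62) and Esr1 (10.62 and 7.64) were among the 6. Further Tbx3 probe sets (1439567_at, 1444594_at and 1445757_at) were at the floor on both arrays. The sort on the Tbx3 reporter fixed the direction of Tbx3. No marker could be lower in Venus High in this table, so the count is no support for the identity of these cells. Of 8 alveolar progenitor genes, 0 were in the table, so the identity of the Venus Low cells was not checked here by markers that are higher in them. Of 6 luminal marker genes, 4 were in the table and were high in both populations, with log2 signals of 13.22 and 13.13 for Krt8. No luminal marker lower in Venus High could appear, so these values do not check the luminal gate.

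Markers of other cell types were mostly at the floor. Of 8 basal genes, 6 were in the table, Krt14, Acta2 and Trp63 among them, and of 8 immune genes, 4 were, Ptprc and Cd3e among them, and none of their listed probe sets rose above the floor on either array. Further probe sets of these genes are not analysed here. Summed signals over the 5 stromal and fat genes in the table were 106 on the Venus High array and 69.7 on the other. Adipoq, Col3a1 and Lum were at the floor. The signals of Dcn (1449368_at) were 64.6 and 29.7, a fold of 2.18. Those of Col1a1 (1455494_at) were 11.1 and, at the floor, 10. Over the 4 endothelial genes the summed signals were 187 and 49.8. Vwf had log2 signals of 7.26 and 4.31, while Cdh5 and Tek were at the floor on both arrays. Over the 2 erythroid genes the summed signals were 23.8 and 20.0. The part of stromal, endothelial and erythroid RNA in the differences of the members was not tested.

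**Figure D5:**
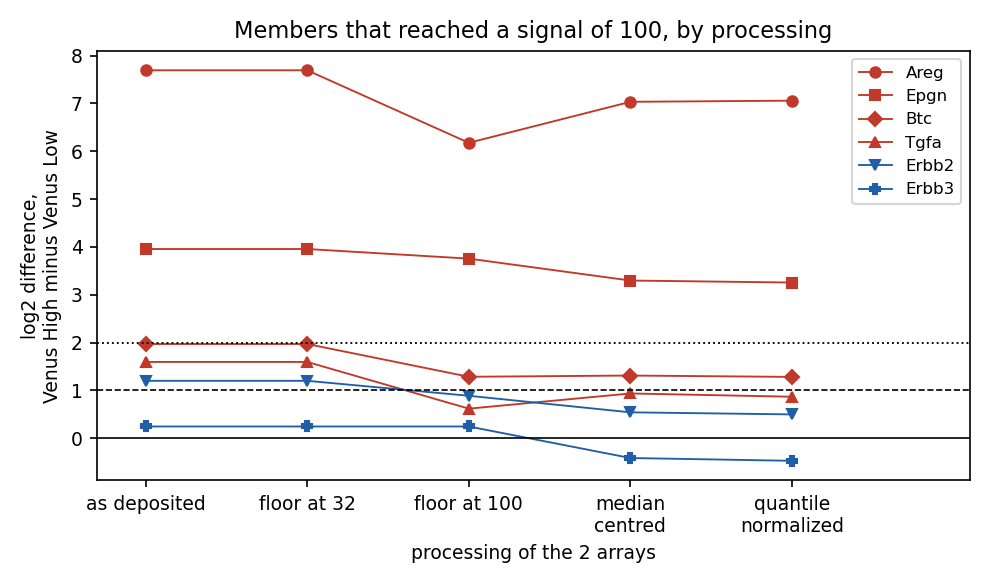
Log2 difference between luminal Venus High and Venus Low cells (vertical axis) of the 6 measured member probe sets, ligands in red and receptors in blue, under each processing of the 2 arrays (horizontal axis). Dashed and dotted lines mark 2-fold and 4-fold. Areg stays between 6.18 and 7.69 and Epgn between 3.26 and 3.96, Tgfa and Erbb2 pass below the 2-fold line, and Erbb3 passes below 0.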

How the data were processed

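Gene expression was measured in 1 pooled sample of each of the luminal populations, Venus High and Venus Low. Biotinylated cRNA was made from 250 ng of total RNA with an integrity number above 9.4. The deposited values are log2 signals, which the authors transformed, normalized and centred per sample with BRB Array. MAS5 is named in the submitters' processing notes. Their reference level is not given in the sources used, so a common scale between the arrays was not established, and the number of arrays limits the precision.

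Of the probe sets, 22223 have 1 symbol in the platform annotation, 602 have more than 1, and 6513 are absent from it. Symbols were updated by gene identifier with the RefSeq table of GRCm38.p6. The only probe set whose 2 values both match those listed for Areg by the study (tolerance 0.0001) was taken as Areg. For gene lists, the probe set with the highest mean stood for a gene. The members, gene lists, thresholds of 2-fold and 4-fold and alternatives were chosen with earlier results of these data known. The rule for named genes took every member, other EGF family ligand and chromosome neighbour (3 named protein-coding genes on each side), in each pathway list the 5 largest and 2 smallest measured differences, and the 3 genes nearest to Areg. Marker genes, genes that fill out a count and Cxcl15 were named outside this rule, after their values were seen.

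With 1 array per population no test was run. The calls, the SD and the scalings were run on simulated data with known answers. This checks the arithmetic and not the spread between arrays. Alternatives were median centring, quantile normalization, other floors and signal minimums, other choices of probe sets and leaving out the Areg probe set. Python 3.11.15, numpy 2.4.6, pandas 2.3.3 and matplotlib 3.10.9 were used.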

Additional observations from a re-analysis of the deposited data

How the results depend on the processing

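The count of 5 member probe sets at least 2-fold higher was 3 under median centring, under quantile normalization, with a minimum signal of 200 and with the floor at 100, and 4 to 6 under the other alternatives. The count of 2 at least 4-fold higher was 1 without the Areg probe set and 2 under each other alternative. The ligand median of 2.96 was 2.31 after median centring, 2.27 after quantile normalization, 2.52 with the floor at 100, 1.97 with a signal minimum of 50, 3.96 with a minimum of 200, 1.85 with no minimum and 1.97 without the Areg probe set. The receptor median of 0.72 was 0.25 with a minimum of 200, 0.066 after median centring and 0.015 after quantile normalization. The ligand median minus the receptor median, 2.24, was 1.25 with a minimum of 50, 3.71 with a minimum of 200, 1.39 with no minimum and 1.25 without the Areg probe set.

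For single member probe sets, 40 values were computed under an alternative scaling or floor, of which 26 were above 0 and 7 negative, the latter for Erbb3, Ereg, the dimmer Tgfa probe set and Egfr. Median centring lowered every difference by 0.66 and quantile normalization was run on a table without lower probe sets, so a negative sign under them follows in part from the construction. No paired analysis was possible because each population has 1 array and the labels give no replicate numbers. Without replicates, the spread between pools of mice is unknown for every value.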

Other observations

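Beyond the genes nearest to the ligand cluster on chromosome 5, Cxcl15, a chemokine gene chosen after its values were seen, is the named protein-coding gene after Mthfd2l, Cxcl2 and Cxcl1 on the Epgn side. Its log2 signal was 12.24 on the Venus High array and 3.50 on the Venus Low array on 1 probe set, with a log2 difference of at least 7.53 on its other probe set. The 4 chemokine genes that follow it, Cxcl3, Pf4, Ppbp and Cxcl5, did not rise above the floor on either array.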
